A study of Homo sapiens with 6 samples.

Results

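The septins of LoVo cells appeared in the deposited RNA sequencing table under symbols that had been turned into calendar dates, as spreadsheet programs do with names such as SEPT2. The rows examined were those with the symbols 2-Sep, 3-Sep, 4-Sep, 5-Sep, 6-Sep, 7-Sep, 8-Sep, 9-Sep, 10-Sep and 11-Sep, where 2-Sep stands for septin 2. These were 10 of 19223 symbols and 70 of 45006 transcripts. All 70 transcripts matched a septin gene in RefSeq by their identifiers, and 0 of the 10 symbols joined more than 1 gene. Where a symbol had several transcripts, the one most abundant on average across the 6 libraries was used, and the other transcripts were described beside it.

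LoVo is an established human cell line derived from a colorectal adenocarcinoma. Bulk RNA was sequenced from 3 Control libraries, which per the labels received vehicle without DCC-2036, and from 3 libraries of cells given 2.5 μM DCC-2036, a tyrosine kinase inhibitor. The labels give 48 h for both groups, whereas the study's text gives a shorter exposure. Nothing in the labels says that the replicates came from separate cultures, so p-values measure the spread between these samples, which may be technical.

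Septins are GTP-binding proteins that join end to end into complexes and filaments at membranes and along actin and microtubules, and they act in cytokinesis, in scaffolding and as diffusion barriers. They fall into groups named after SEPT2, SEPT3, SEPT6 and SEPT7. A filament draws subunits from different groups, and members of a group can often stand in for each other, whereas SEPT7 is alone in its group. In the large intestine, septins are best known through SEPT9, whose methylated promoter DNA in blood plasma is used as a marker of colorectal cancer.

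The values were a signal that the authors had adjusted for sequencing depth, so read depth per library is unknown. The column totals were 38997229, 39956227 and 40587145 in Control against 43279603, 45957597 and 48023306 with DCC-2036. The label was checked against colon epithelial markers, which were present only in part. Of 10 such markers, 7 passed the filter on low values. KRT8 had means of 59932 in Control and 108237 in DCC-2036. Of the defining markers, CDX1 was listed at 0 in all 6 libraries, and VIL1 and CDH17 were between 0 and 5.12, whereas CDX2 had 297 ± 17.1 (SD, n = 3) in Control. The summed signal of the list was 104485, 108196 and 114999 in Control against 148342, 163485 and 188447 with DCC-2036, with 2 genes higher, CDH1 and KRT8, and 1 lower, KRT20 (limma, adjusted p under 0.01). KRT8 lost its call without Control replicate 1, 2 or 3 or DCC-2036 replicate 2, at adjusted p = 0.0146, 0.0142, 0.0111 and 0.0133, and KRT20 without Control replicate 1 or 3 (0.0165 and 0.0176) and with no filter (0.0105). Of 12 markers of other cell types, 3 passed the filter and 0 were called in limma, while PTPRC was at 0 throughout. MAP2 alone had an unadjusted p under 0.05, with signals of 162, 188 and 158 in Control against 211, 273 and 438 with DCC-2036 (log2 fold change 0.79, adjusted p = 0.0381), and was called higher without DCC-2036 replicate 1 (1.03, adjusted p = 0.00786). With no filter, 1 of the 12 was called higher, CD3E, with signals of at most 2.29. Their summed signal was 622, 633 and 583 in Control against 724, 772 and 1085 with DCC-2036, and COL1A1 was the most abundant in Control, with means of 376 and 457. The part of these markers in the septin values was not tested.

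SEPT2 and SEPT3 fell with DCC-2036, and SEPT7 rose, in a fit across all genes in which limma was applied to log2(signal + 1) and p-values were adjusted over all genes tested. All 10 septins passed the filter on low values, a signal of 10 or more in 3 or more libraries. At an adjusted p under 0.01, 1 septin was higher and 2 were lower, that is 3 of 10, while 41.9% of the 12725 genes tested were called, 19.2% higher and 22.7% lower. In 7 of the 10 septins the groups had no overlap, against 71.1% of all genes tested. At an adjusted p under 0.05 the count was 7 of 10, against 62.2% of all genes. Over only 10 genes, these shares were read as near those of all genes and not as a result about the septins. Fewer cells with a transcript and less of it per cell cannot be told apart in bulk RNA.

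Across all genes, 2442 were higher and 2887 lower, with a median log2 fold change of -0.092. After scaling to equal totals the split was 1716 to 3388 and the median was -0.281, whereas after scaling by the median of ratios these were 2704 to 2627 and -0.008, so which direction had more calls depended on the scaling. Relative to the median gene, the log2 changes were -0.53 for 2-Sep, -1.80 for 3-Sep and 0.83 for 7-Sep, the same as deposited and under these 2 scalings. The counts across all genes also moved with single libraries. Without Control replicate 1, 2 or 3 or DCC-2036 replicate 2, the genes called higher numbered 1054, 1000, 992 and 928, and those called lower 1593, 1514, 1525 and 1708.

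**Figure D1:**
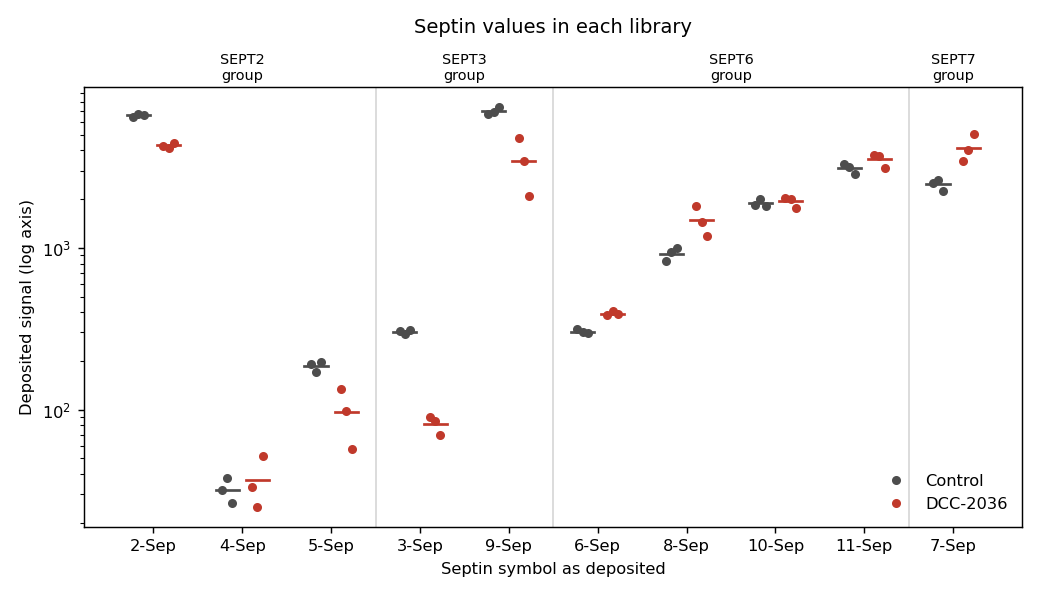
Signal of each septin in every library, on a log axis, with septins ordered by group along the horizontal axis. Points are libraries and short lines are group means. The Control values of 9-Sep lie between 6748 and 7377 and its DCC-2036 values between 2075 and 4794, whereas the groups of 4-Sep, 10-Sep and 11-Sep overlap.

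In the SEPT2 group, SEPT2 fell. 2-Sep (SEPT2, NM_001321034.1), a subunit found along actin fibers and at the base of the primary cilium, had signals of 6469, 6715 and 6583 in Control against 4242, 4161 and 4471 with DCC-2036. All DCC-2036 libraries were below all Control libraries, and the libraries within each group lay close together. Its log2 fold change was -0.62 (SE 0.09, 95% confidence interval -0.84 to -0.40, adjusted p = 0.00197, limma), and the DCC-2036 mean was 65.1% of the Control mean. The call was lost without Control replicate 1, 2 or 3 or DCC-2036 replicate 2, at adjusted p = 0.0103, 0.0137, 0.0118 and 0.0127, and over all alternatives the adjusted p ranged from 0.000228 to 0.0137. HDLBP lies on the opposite strand over 1962 bases of the SEPT2 locus, with signals from 15692 to 16843 in Control and from 18770 to 21150 in DCC-2036. The Nextera XT kit named in the labels does not mark strand, so reads from the shared bases cannot be told apart.

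The promoters of 2-Sep, 7-Sep and 9-Sep are shown because these septins had the highest signal per kilobase with DCC-2036 under a length rule that was itself chosen after the values were seen. With the length matched to each transcript itself, 11-Sep was highest and 10-Sep was above 7-Sep and 9-Sep. Each run spans 250 bases before to 50 after a RefSeq start site (GRCh38.p14), the start nearest to that of the transcript used, and is written 5′ to 3′ on the strand of the gene. The SEPT2 window is chr2:241315675-241315974 on the plus strand, that of SEPT7 is chr7:35800736-35801035 on the plus strand, and that of SEPT9 is chr17:77281249-77281548 on the plus strand. Capitals mark GGGCGG, the core of the GC box, or its complement CCGCCC, and matches may overlap each other.
2-Sep: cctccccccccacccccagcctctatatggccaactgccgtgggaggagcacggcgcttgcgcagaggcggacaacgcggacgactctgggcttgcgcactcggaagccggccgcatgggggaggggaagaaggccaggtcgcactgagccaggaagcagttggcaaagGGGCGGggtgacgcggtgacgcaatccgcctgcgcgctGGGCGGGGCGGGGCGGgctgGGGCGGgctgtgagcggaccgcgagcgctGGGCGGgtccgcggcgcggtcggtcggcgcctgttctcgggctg
7-Sep: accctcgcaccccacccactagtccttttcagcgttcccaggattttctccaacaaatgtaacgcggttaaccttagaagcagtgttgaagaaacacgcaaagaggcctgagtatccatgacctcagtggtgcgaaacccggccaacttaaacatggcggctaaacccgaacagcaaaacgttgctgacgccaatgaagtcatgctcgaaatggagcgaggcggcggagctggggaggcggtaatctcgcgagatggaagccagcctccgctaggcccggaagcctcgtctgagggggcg
9-Sep: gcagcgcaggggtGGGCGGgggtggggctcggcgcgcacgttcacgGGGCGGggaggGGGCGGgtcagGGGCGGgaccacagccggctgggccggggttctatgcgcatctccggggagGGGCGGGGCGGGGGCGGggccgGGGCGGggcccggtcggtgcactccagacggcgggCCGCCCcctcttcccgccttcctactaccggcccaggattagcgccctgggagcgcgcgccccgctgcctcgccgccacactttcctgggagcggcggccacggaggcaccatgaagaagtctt

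GGGCGG was searched on both strands, with overlapping matches counted, and 45.0% of 35116 RefSeq promoters of this length held it. The window of 2-Sep held 6 matches, that of 9-Sep 9 and that of 7-Sep 0. Of the 10 septins, 8 matched an entry in the promoter table, and SEPTIN3 and SEPTIN5 did not. Among these 8, 7 held GGGCGG, with 6 matches in 10-Sep, 5 in 8-Sep, 3 each in 6-Sep and 11-Sep, and 2 in 4-Sep. TATAAA, searched in the same way, was in 0 of the 8 windows and in 11.5% of all promoters. The dinucleotide CG occurred 18 to 41 times in the 8 windows, against a median of 14 over all promoters. A match describes these letters in this window only. The promoter source lists 3 starts for SEPTIN2, 3 for SEPTIN7 and 10 for SEPTIN9, and which start was in use was not tested.

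The other members of the SEPT2 group had lower levels per kilobase than 2-Sep. 5-Sep (SEPT5, NM_002688.5), known for its part in exocytosis in neurons and platelets, had signals of 192, 170 and 197 in Control against 134, 98.5 and 57.3 with DCC-2036. The groups did not overlap, but the DCC-2036 libraries were spread widely, with replicate 3 lowest. Its log2 fold change was -1.02 (SE 0.30, adjusted p = 0.0229, limma), which missed the limit. Without DCC-2036 replicate 1 or 3 the adjusted p was 0.00445 or 0.00994, within a range of 0.00445 to 0.0687 over all alternatives. Of the 50-base windows of this transcript, 91.2% also occur in the annotated readthrough of SEPT5 and GP1BB, so the signal may include reads of that transcript. GP1BB itself had signals from 10.2 to 28.8.

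4-Sep (SEPT4, NM_080415.3), whose ARTS isoform binds the apoptosis inhibitor XIAP, had signals of 32.0, 38.0 and 26.6 in Control against 33.2, 25.2 and 52.0 with DCC-2036. The groups overlapped, and DCC-2036 replicate 3 was the highest library. Its log2 fold change of 0.14 (SE 0.27, 95% confidence interval -0.52 to 0.80, adjusted p = 0.670, limma) turned to -0.04 after scaling to equal totals and to -0.13 without DCC-2036 replicate 3, with adjusted p from 0.247 to 0.973 over the alternatives. Relative to the median gene it was 0.23 as deposited and 0.24 after scaling to equal totals.

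In the SEPT3 group, SEPT3 fell. 3-Sep (SEPT3, NM_019106.5), a septin best known from neurons, had signals of 306, 293 and 313 in Control against 90.2, 85.5 and 69.6 with DCC-2036. Every DCC-2036 library was far below every Control library, and the groups did not overlap. The mean with DCC-2036 was 26.9% of the Control mean. The log2 fold change was -1.89 (SE 0.13, 95% confidence interval -2.19 to -1.59, adjusted p = 0.000228, limma), and by p-value 3-Sep ranked 170 among the 12725 genes. It was the only septin that was called under all 17 alternatives, at log2 fold changes of -2.08 to -1.78 (adjusted p 4.25e-05 to 0.00400).

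9-Sep (SEPT9, NM_001113491.1), which is needed for the final separation of daughter cells, had signals of 6748, 6859 and 7377 in Control against 4794, 3453 and 2075 with DCC-2036. The groups did not overlap. The DCC-2036 libraries were far apart, with SD of 0.609 on the log2 scale against 0.068 in Control, and replicate 3 was the lowest. At a log2 fold change of -1.10 (SE 0.29, 95% confidence interval -1.81 to -0.40, adjusted p = 0.0166, limma), 9-Sep missed the limit although its mean was 49.2% of that in Control. Without DCC-2036 replicate 1 or 3 it was called, at adjusted p = 0.00281 or 0.00644, and the adjusted p ranged up to 0.0534 over the alternatives. Column totals also differed between the DCC-2036 libraries, and their part in this spread was not tested.

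In the SEPT6 group, 0 of 4 septins were called in limma at an adjusted p under 0.01, while 2, 6-Sep and 8-Sep, were under 0.05 both adjusted and unadjusted. 6-Sep (SEPT6, NM_145799.3), a partner of SEPT2 and SEPT7 in the canonical complex, had signals of 314, 302 and 296 in Control against 383, 405 and 389 with DCC-2036. All DCC-2036 libraries were above all Control libraries, by a small amount. This gave a log2 fold change of 0.37 (SE 0.09, 95% confidence interval 0.15 to 0.59, adjusted p = 0.0136, limma). With scaling by the median of ratios it was 0.45 and was called at adjusted p = 0.00765, within a range of 0.00765 to 0.150 over the alternatives.

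8-Sep (SEPT8, NM_015146.1), which binds the vesicle protein VAMP2, had signals of 835, 936 and 994 in Control against 1815, 1443 and 1186 with DCC-2036. The groups did not overlap, and DCC-2036 replicate 1 was the highest library. The log2 fold change was 0.67 (SE 0.17, 95% confidence interval 0.25 to 1.09, adjusted p = 0.0161, limma). It was called without DCC-2036 replicate 3 (adjusted p = 0.00370), with scaling by the median of ratios (0.00766) and with a trend in limma (0.00546), and the adjusted p ranged up to 0.0837 over the alternatives.

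10-Sep (SEPT10, NM_001321501.1) had signals of 1851, 1998 and 1805 in Control against 2033, 2003 and 1765 with DCC-2036. The groups overlapped, and DCC-2036 replicate 3 was the lowest library. A log2 fold change of 0.04 (95% confidence interval -0.22 to 0.29, adjusted p = 0.784, limma) turned to -0.15 after scaling to equal totals and to -0.00 without DCC-2036 replicate 1, with adjusted p from 0.319 to 0.989 over the alternatives. Of its 50-base windows, 17.2% also occur in the pseudogene SEPT10P1, and how the authors assigned such reads is not given in the sources used here.

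11-Sep (SEPT11, NM_001306147.1) had signals of 3312, 3169 and 2869 in Control against 3760, 3699 and 3111 with DCC-2036. The groups overlapped through DCC-2036 replicate 3, which lay below 2 of the Control libraries. A log2 fold change of 0.17 (95% confidence interval -0.12 to 0.47, adjusted p = 0.246, limma) turned to -0.02 after scaling to equal totals. Relative to the median gene, it was 0.27 as deposited and after scaling to equal totals and 0.26 after scaling by the median of ratios, and that of 10-Sep was 0.13, 0.13 and 0.12.

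SEPT7 rose. 7-Sep (SEPT7, NM_001788.5), the subunit that most septin complexes require, had signals of 2523, 2627 and 2244 in Control against 3430, 3994 and 5031 with DCC-2036. All DCC-2036 libraries were above all Control libraries, with replicate 3 highest. The log2 fold change was 0.74 (SE 0.16, 95% confidence interval 0.34 to 1.13, adjusted p = 0.00846, limma), and the DCC-2036 mean was 168% of the Control mean. The call was lost without Control replicate 1, 2 or 3 or DCC-2036 replicate 2, at adjusted p = 0.0281, 0.0240, 0.0351 and 0.0273. It was also lost after scaling to equal totals (0.0158) and with no filter on low values (0.0186), and over all alternatives the adjusted p ranged from 0.00191 to 0.0351. Of the 50-base windows of 7-Sep, 7.37% also occur in 14 other annotated genes, of which SEPT7P2 shares the most, so that part of the signal is uncertain. The promoter window of 7-Sep, printed without capitals, differs in this from those of 2-Sep and 9-Sep. Those of 6-Sep and 8-Sep, whose groups also lay higher without overlap, held 3 and 5 matches.

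**Figure D2:**
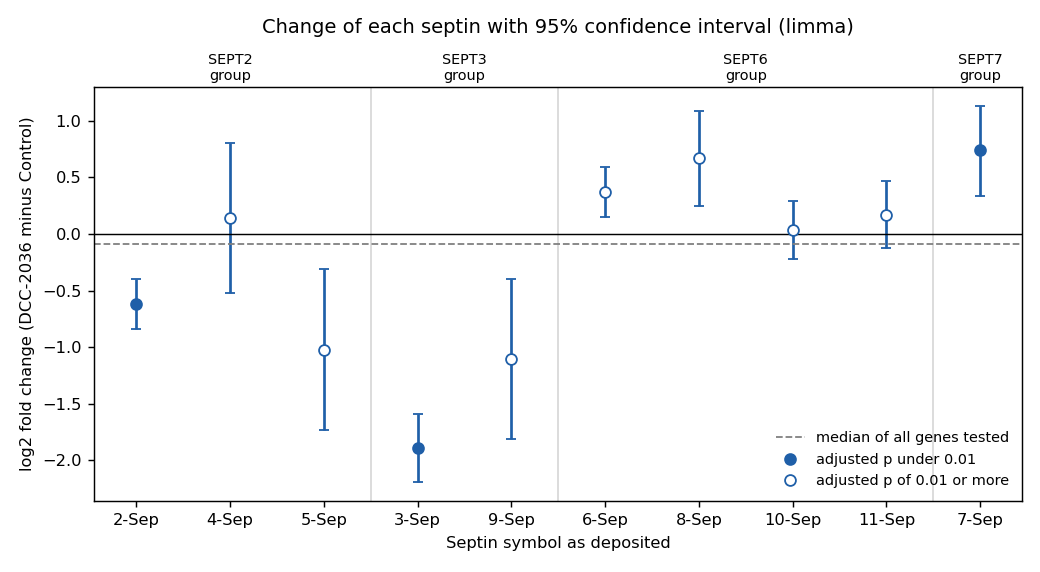
Log2 fold change of each septin, DCC-2036 minus Control, with 95% confidence intervals from limma over 3 libraries per group. Filled points have an adjusted p under 0.01, which are 2-Sep (-0.62), 3-Sep (-1.89) and 7-Sep (0.74), and the dashed line is the median of all genes tested (-0.092). The changes of 4-Sep, 10-Sep and 11-Sep turn negative after scaling to equal totals.

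An exact permutation test of single values, two-sided, cannot give a p below 0.1 with 3 libraries against 3. The exact permutation p was 0.1 for the 7 septins whose groups did not overlap, 0.3 for 11-Sep and 0.8 for both 4-Sep and 10-Sep. Among the DCC-2036 libraries, replicate 3 was the lowest in 3-Sep, 5-Sep, 8-Sep, 9-Sep, 10-Sep and 11-Sep and the highest in 2-Sep, 4-Sep and 7-Sep. Replicate 3 also had the highest column total, and the part of this in the septin values was not tested.

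Levels were compared between septins per kilobase of transcript, as signal divided by the length of the longest matched GENCODE 29 transcript among those with at least 0.9 of the mean of the transcript used. This length rule was chosen after the lengths and values had been seen. In Control, 2-Sep (1780 ± 33.3 per kilobase, SD, n = 3) and 9-Sep (1571 ± 75.4) were highest. They were followed by 10-Sep (610 ± 32.6), 7-Sep (567 ± 45.6) and 11-Sep (557 ± 40.4), which lay within their spread of each other. 8-Sep had 210 ± 18.4, 5-Sep 90.0 ± 6.9, 3-Sep 65.4 ± 2.2, 6-Sep 64.8 ± 1.9 and 4-Sep 16.9 ± 3.0 per kilobase, and 3-Sep and 6-Sep did not differ beyond their spread. With DCC-2036 the order began with 2-Sep (1160 ± 43.4), 7-Sep (954 ± 187) and 9-Sep (773 ± 305), and the libraries of 7-Sep overlapped those of both others. 11-Sep (630 ± 64.1) and 10-Sep (626 ± 47.4) followed, overlapping each other and 9-Sep, then 8-Sep (337 ± 71.9), 6-Sep (83.6 ± 2.4), 5-Sep (46.6 ± 18.4), 4-Sep (19.3 ± 7.2) and 3-Sep (17.6 ± 2.3), of which the last pair overlapped. The order depended on the length rule. A second rule took the GENCODE 29 transcript matched to each transcript used, which need not have its full length. For 11-Sep it had 1886 bases, against 5593 for NM_018243.3, which had 99.4% to 99.8% of the signal. For 10-Sep it had 1605 bases, a match shared by other 10-Sep transcripts, against 3091 under the first rule. Under this second rule the Control order began with 2-Sep (1988 ± 37.2), 9-Sep (1831 ± 87.8), 11-Sep (1652 ± 120), 10-Sep (1174 ± 62.7) and 7-Sep (567 ± 45.6). The order with DCC-2036 began with 11-Sep (1868 ± 190), 2-Sep (1295 ± 48.5), 10-Sep (1205 ± 91.3), 7-Sep (954 ± 187) and 9-Sep (901 ± 356).

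Under the first of these rules the groups took different shares of the summed septin signal in each library, given here as a description. The SEPT2 group made up 34.1% ± 0.1 in Control and 26.5% ± 2.1 in DCC-2036 (SD, n = 3), and the SEPT3 group 29.6% ± 1.5 and 16.8% ± 5.6. The SEPT6 group made up 26.1% ± 0.8 in Control and 36.0% ± 1.9 in DCC-2036, and SEPT7 10.2% ± 0.8 and 20.7% ± 5.3. In each of the 4 groups the DCC-2036 shares did not overlap the Control shares, while 71.1% of all genes tested had no overlap in their signals. The shares of a library add up to the whole, so they are not separate results, and a share can rise because others fall. In the SEPT6 group, the signals of 10-Sep and 11-Sep overlapped between Control and DCC-2036. The summed signal per kilobase was 5466, 5614 and 5514 in Control against 4937, 4621 and 4381 with DCC-2036. Under the second rule the SEPT6 group had the largest share, 40.5% ± 1.4 in Control and 51.9% ± 1.8 in DCC-2036. The SEPT2 group then had 27.4% ± 0.4 and 20.3% ± 2.0, the SEPT3 group 24.8% ± 1.5 and 13.4% ± 4.4, and SEPT7 7.4% ± 0.5 and 14.4% ± 3.9, again without overlap between Control and DCC-2036 in any group. The larger SEPT6 share under this rule comes from the shorter lengths matched to 11-Sep and 10-Sep. Their Control means were 1652 and 1174 per kilobase, against 557 and 610 under the first rule.

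**Figure D3:**
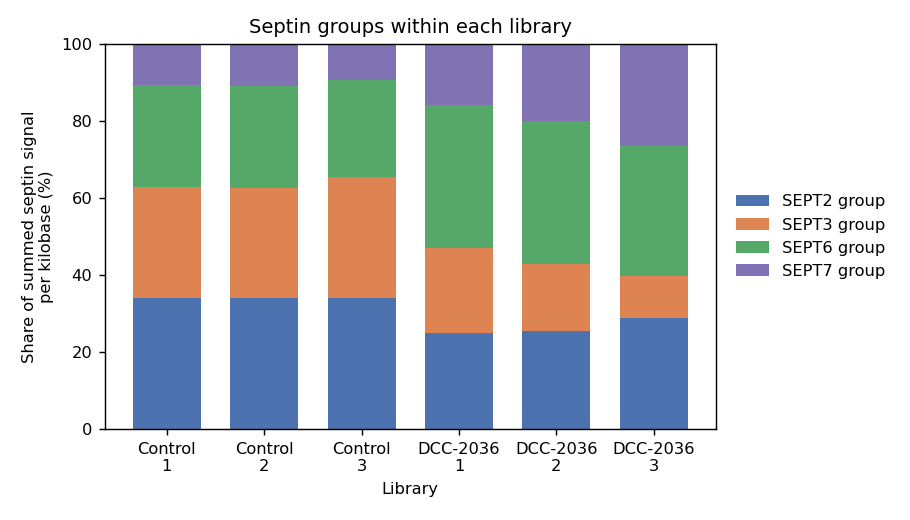
Share of the summed septin signal per kilobase, in percent, taken by each septin group in each of the 6 libraries, under the length rule used first. The SEPT7 share lies between 9.4% and 10.8% in Control and between 16.0% and 26.4% in DCC-2036.

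The transcripts of a symbol share most of their sequence and reads, so their values are not independent of each other. Of the 70 septin transcripts, all passed the filter, and 19 were called in limma, 4 higher and 15 lower, against 42.2% of the 32323 transcripts tested. Without Control replicate 2 or 3 or DCC-2036 replicate 2, 0 were higher and only the 2 of 3-Sep lower, and without Control replicate 1, 0 were higher and 15 lower. After scaling to equal totals or by the upper quartile and with no filter, 0 were higher, whereas scaling by the median of ratios gave 9 and a trend in limma 8 higher and 27 lower. All 13 transcripts of 2-Sep were lower, with log2 fold changes from -0.63 to -0.61, and the one with the lowest mean, NM_006155.2, had 96.0% to 97.9% of the signal of the one used. Both transcripts of 3-Sep were lower. The second, NM_145733.2, had signals of 149, 177 and 148 in Control against 55.9, 40.2 and 42.4 with DCC-2036, and a log2 fold change of -1.76 (adjusted p = 0.000404, limma). All 3 transcripts of 7-Sep were higher, with log2 fold changes from 0.73 to 0.74. The calls of 2-Sep and 7-Sep were thus all lost without Control replicate 2 or 3 or DCC-2036 replicate 2, those of 7-Sep also without Control replicate 1, and only those of 3-Sep were kept throughout.

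In 6-Sep, 1 of 4 transcripts was called. This was NM_015129.5, with signals of 244, 232 and 226 in Control against 308, 317 and 308 with DCC-2036, and a log2 fold change of 0.41 (adjusted p = 0.00805, limma). The 4 log2 fold changes ranged only from 0.37 to 0.41, so its call does not set it apart from the other transcripts of 6-Sep, and it was kept only when DCC-2036 replicate 3 was the library left out. In 8-Sep, 0 of 6 transcripts were called in limma, at log2 fold changes of 0.61 to 0.67 (adjusted p 0.0150 to 0.0285). All 6 had an unadjusted p under 0.05 in this fit. Without DCC-2036 replicate 3, all 6 were called higher, as were 5 with a trend in limma and 4 with scaling by the median of ratios. The lowest of the 6, NM_001098811.1, had between 37.3% and 43.8% of the signal of the one used.

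The 11 transcripts of 9-Sep lay on 2 levels. In Control replicate 1, 6 transcripts had signals from 6452 to 6748 and the other 5 from 5025 to 5028. Relative to the transcript used, the lowest, NM_001293696.1, had 74.5%, 73.5% and 74.6% in Control against 75.2%, 73.2% and 73.0% with DCC-2036. The ratio between the levels was thus nearly the same in all libraries. Of the 11, 0 were called in limma, at log2 fold changes of -1.11 to -1.08 (adjusted p 0.0162 to 0.0186). All 11 had an unadjusted p under 0.05 in this fit. They were all called lower without DCC-2036 replicate 1 or 3 and with a trend in limma. The signal of NM_001113491.1 exceeded that of NM_001113493.1 by 296, 306 and 314 in Control and by 172, 168 and 106 in DCC-2036.

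Of the 21 transcripts of 10-Sep, 0 were called in limma and 0 had an unadjusted p under 0.05, with log2 fold changes from -0.04 to 0.11. The lowest, NM_001321503.1, had 48.1% to 52.1% of the signal of the one used. Both transcripts of 5-Sep were without overlap between the groups but not called (adjusted p = 0.0226 and 0.0149, limma). Both were called lower without DCC-2036 replicate 1 or 3, and 1 of them with a trend in limma. The 6 transcripts of 4-Sep had log2 fold changes from 0.14 to 0.24, and both of 11-Sep from 0.17 to 0.18, with adjusted p of at least 0.231.

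**Figure D4:**
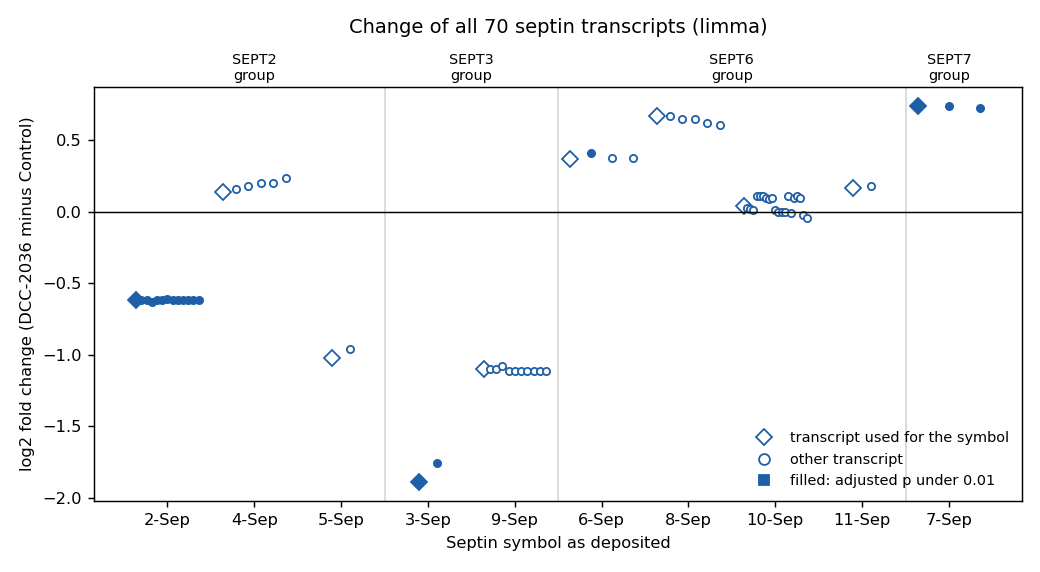
Log2 fold change of all 70 septin transcripts, DCC-2036 minus Control, by symbol. Diamonds are the transcripts used for the symbols, circles the others, and filled signs have an adjusted p under 0.01 in limma. The 13 transcripts of 2-Sep lie between -0.63 and -0.61 and the 21 of 10-Sep between -0.04 and 0.11, and transcripts of 1 symbol share reads.

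The table held 3 more septin symbols. 1-Sep (SEPT1, NM_052838.4), of the SEPT2 group, had signals of 54.8, 24.0 and 46.1 in Control against 102, 138 and 159 with DCC-2036. The groups did not overlap, and the log2 fold change was 1.71 (SE 0.33, adjusted p = 0.00485, limma). Its call was lost without Control replicate 3 or DCC-2036 replicate 2 or 3, at adjusted p = 0.0148, 0.0189 and 0.0101, and also with no filter (0.0117), within a range of up to 0.0189. Its locus overlaps ZNF48 on the opposite strand, which had signals of 699, 707 and 732 in Control against 309, 333 and 411 with DCC-2036, so reads of both may be mixed. 12-Sep (SEPT12) had signals of at most 5.51 and 14-Sep (SEPT14) of at most 2.23, and both were below the filter.

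Averaged over the 6 libraries, 2-Sep had the highest signal of the septins. In Control alone, 9-Sep was higher, with a mean of 6995 against 6589 for 2-Sep. The genes most like 2-Sep, by the mean absolute difference between centred log2 values over 6 libraries, were WIZ (0.0239), C11orf58 (0.0294) and H3F3B (0.0311). WIZ had signals of 1522, 1521 and 1543 in Control against 987, 1025 and 1052 with DCC-2036. Its DCC-2036 libraries all lay below its Control libraries, as did those of 2-Sep.

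Partners of septins and genes of cytokinesis were taken from 5 lists with 52 genes. Of 51 tested, 11 were higher and 15 lower in limma, with a median log2 fold change of -0.08. Over all genes tested, 19.2% were higher and 22.7% lower, with a median of -0.092, and the counts of each list below stand beside these shares. Without Control replicate 1, 2 or 3 or DCC-2036 replicate 2, those higher numbered 5, 4, 5 and 4, and those lower 6 in each case. After scaling to equal totals, 7 were higher.

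CDC42 and the CDC42EP proteins, which bind septins and organize their filaments, moved in both directions. CDC42 had signals of 4192, 4620 and 4630 in Control against 7331, 8902 and 10306 with DCC-2036, with a log2 fold change of 0.97 (adjusted p = 0.00214, limma). CDC42EP1 (-0.69, adjusted p = 0.00253) and CDC42EP2 (-1.72, adjusted p = 0.000194) were lower. CDC42EP2 had signals of 341, 379 and 370 in Control against 104, 108 and 117 with DCC-2036 and was called without each single library. CDC42 and CDC42EP1 lost their calls without Control replicate 1, 2 or 3 or DCC-2036 replicate 2, at adjusted p of up to 0.0114 and 0.0138. CDC42EP4 (0.24, adjusted p = 0.281, but 0.00905 without DCC-2036 replicate 3) and CDC42EP3 (0.01, adjusted p = 0.932, limma) were not called, and CDC42EP3 turned to -0.18 after scaling to equal totals. CDC42EP5 had signals of at most 9.35 and was not tested. The median of the 5 tested was 0.01.

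Of 7 other septin partners, 2 were higher and 1 lower, with a median log2 fold change of 0.19. The adaptor NCK1 (1.15, adjusted p = 0.00138) and the ubiquitin ligase SIAH1 (1.17, adjusted p = 0.00747, limma) were higher, and the deacetylase HDAC6 (-0.81, adjusted p = 0.00250) was lower. SIAH1 and HDAC6 lost their calls without any 1 Control library or DCC-2036 replicate 2, at adjusted p of up to 0.0276 and 0.0131, which left 1 gene higher and 0 lower. SIAH1 was also not called after scaling to equal totals (0.0102) or with no filter (0.0167). Without DCC-2036 replicate 1, 2 genes were lower.

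Of 14 genes of the contractile ring, 4 were higher and 1 lower, with a median of 0.20. ANLN, the anillin that recruits septins to the ring, had signals of 4553, 4838 and 4219 in Control against 3282, 3558 and 3550 with DCC-2036. Its groups did not overlap, and its log2 fold change of -0.39 missed the limit (adjusted p = 0.0169, limma). ANLN was called lower after scaling to equal totals (-0.58, adjusted p = 0.00390) and with a trend in limma (0.00470). RHOA (0.90, adjusted p = 0.00199), ROCK1 (0.78, 0.00335), MYL12B (0.70, 0.00845) and MYH9 (0.48, 0.00763) were higher, and the formin DIAPH3 (-0.78, 0.00121) was lower. The 4 higher calls were lost without Control replicate 2 or DCC-2036 replicate 2. Those of RHOA, MYL12B and MYH9 were also lost without Control replicate 1, those of ROCK1, MYL12B and MYH9 without Control replicate 3, and that of MYH9 without DCC-2036 replicate 3. The adjusted p over the libraries left out reached 0.0110 for RHOA, 0.0165 for ROCK1, 0.0328 for MYL12B and 0.0393 for MYH9. Those higher then numbered 1, 0 and 1 without Control replicate 1, 2 and 3 and 0 without DCC-2036 replicate 2. MYL12B and MYH9 also lost their calls after scaling to equal totals (0.0143 and 0.0297) and with no filter (0.0186 and 0.0172), which left 2 genes higher.

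Of 10 genes of the central spindle, 0 were higher and 6 lower in limma, with a median of -0.64, and 2 had a higher value at an unadjusted p under 0.05. The lowest log2 fold changes among the genes called were those of AURKB (-2.61, adjusted p = 0.000178), KIF20A (-1.17, 0.000427), CDCA8 (-1.14, 0.00139) and BIRC5 (-0.68, 0.00250). AURKB, the kinase of the chromosomal passenger complex, had signals of 1471, 1559 and 1611 in Control against 234, 244 and 283 with DCC-2036. Without any 1 Control library or DCC-2036 replicate 2, the genes called lower fell from 6 to 3, and BIRC5 was among those lost, at adjusted p of up to 0.0141. Without DCC-2036 replicate 1, 1 gene was higher.

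Of 15 genes of abscission, the step in which SEPT9 takes part, 4 were higher and 5 lower, with a median of -0.22. CHMP4C (1.77, adjusted p = 0.000447), IST1 (1.04, 0.00137), CHMP4B (0.82, 0.00100) and CHMP2A (0.71, 0.00841) were higher in limma. CEP55 (-1.63, adjusted p = 0.000206), CHMP1A (-0.77, 0.00974), VPS4A (-0.66, 0.00414) and CHMP4A (-0.59, 0.00706) had the lowest log2 fold changes among the genes called. CHMP2A, CHMP1A, VPS4A and CHMP4A lost their calls without any 1 Control library or DCC-2036 replicate 2, at adjusted p of up to 0.0348, 0.0380, 0.0209 and 0.0305. CHMP2A also lost it without DCC-2036 replicate 3, and CHMP4A without DCC-2036 replicate 1. The genes called lower then fell from 5 to 1 in each case without a Control library or DCC-2036 replicate 2, to 1 with no filter and to 2 with scaling by the median of ratios. With no filter, CHMP2A (0.0186), CHMP1A (0.0210), VPS4A (0.0103) and CHMP4A (0.0161) were not called. CHMP1A (0.0109) and CHMP4A (0.0173) were not called with scaling by the median of ratios, CHMP1A with a pseudocount of 0.1 (0.0105), and CHMP2A after scaling to equal totals (0.0136).

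**Figure D5:**
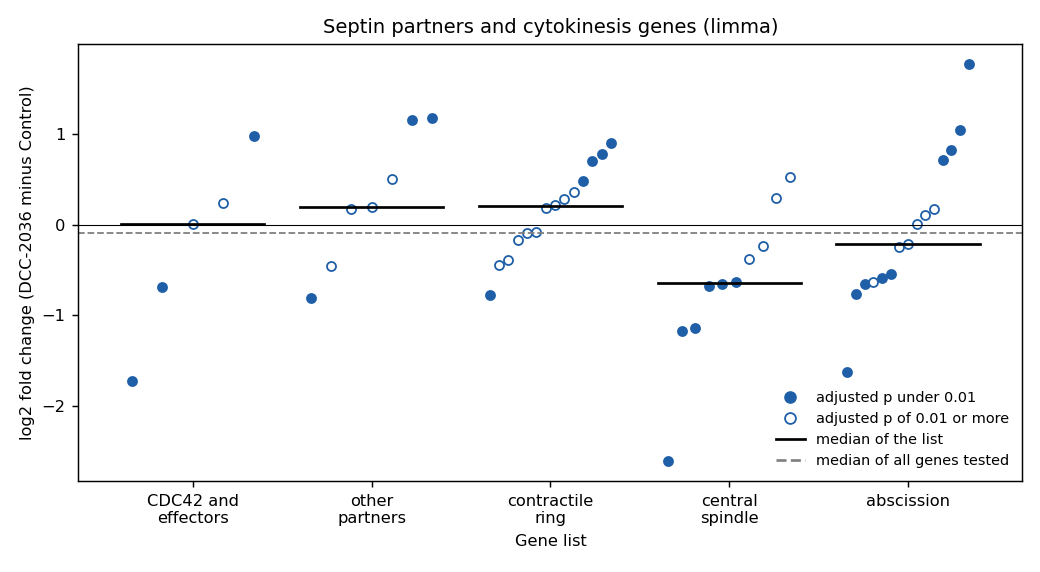
Log2 fold change of the tested genes of 5 lists, DCC-2036 minus Control, with filled points for an adjusted p under 0.01 in limma. Solid lines are list medians, from -0.64 for the central spindle to 0.20 for the contractile ring, and the dashed line is the median of all genes tested (-0.092).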

How the data were processed

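The 6 libraries of LoVo RNA were grouped by their titles in the labels. The authors deposited 1 table with a signal per transcript and library, adjusted for depth, together with their own log2 fold changes, p-values and q-values, which were not used. The aligner, counter and genome build are not given in the sources used here. Other columns with values per sample numbered 0. The members and lists were chosen with earlier results of these data known.

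Each symbol was represented by its most abundant transcript on average across the 6 libraries. Of 19223 symbols, 12725 with a signal of 10 or more in 3 or more libraries were tested as log2(signal + 1), with limma 3.58.1 in R 4.3.3, without covariates, two-sided, with Benjamini-Hochberg adjustment over all genes tested and calls at an adjusted p under 0.01. All 32323 transcripts that passed the same filter were fitted likewise. Fold changes on this scale understate those of low genes. Simulated data were used to test the fit. Python 3.11.15 was used with scipy 1.17.1 for exact permutation tests, matplotlib 3.10.9 for plots, and pandas 2.3.3 and numpy 2.4.6. Transcript lengths and overlaps came from GENCODE 29 through RefSeq identifiers, and promoters from RefSeq (GRCh38.p14).

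The genes named were all 10 septins, 1-Sep, 12-Sep and 14-Sep, ANLN, CDC42 and the CDC42EP genes, up to 4 called genes with the highest and up to 4 with the lowest log2 fold change of each other list, the most abundant markers, MAP2, which was added after its values were seen, and the 3 genes most like the septin with the highest mean. Beyond these rules, CDX1, CDX2, VIL1 and CDH17 of the colon markers and PTPRC and CD3E of the other markers were named. Genes that overlap or share sequence with a septin were chosen after their annotation was seen. Alternatives were 3 scalings, a pseudocount of 0.1, other filters, limma with a trend, a replicate block, each library left out, other limits on calls, and all transcripts as separate rows. The rule for lengths was added after the data had been seen.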

Additional observations from a re-analysis of the deposited data

How the results depend on the processing

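Of the 17 alternatives, 3-Sep was called in all. The calls of 2-Sep (log2 fold change -0.62) and 7-Sep (0.74) were lost with a replicate block and where an absolute change of 1 or more on the log2 scale was required, and that of 7-Sep also with no filter on low values (0.74) and after scaling to equal totals (0.55). Gained were 6-Sep (0.45) and 8-Sep (0.75) with scaling by the median of ratios, 8-Sep (0.67) and 9-Sep (-1.10) with a trend in limma, and 5-Sep (-1.02), 6-Sep (0.37), 8-Sep (0.67) and 9-Sep (-1.10) at an adjusted p under 0.05. Scaling to equal totals turned 4-Sep (-0.044), 10-Sep (-0.15), 11-Sep (-0.016) and CDC42EP3 (-0.18) negative. By construction this scaling raises the Control values, divided by 0.9172 to 0.9531, and lowers the DCC-2036 values, divided by 1.008 to 1.127. The causes of the other changes were not tested, except that leaving out a library or adding a block leaves fewer degrees of freedom.

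When single libraries were left out, log2 fold changes ranged from -0.65 to -0.60 for 2-Sep, -1.30 to -0.69 for 5-Sep, 0.59 to 0.87 for 7-Sep, 0.51 to 0.82 for 8-Sep and -1.38 to -0.78 for 9-Sep. Signs turned within -0.13 to 0.38 for 4-Sep, -0.0018 to 0.10 for 10-Sep and -0.056 to 0.10 for CDC42EP3.

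No pairing by replicate number was visible, as same-numbered libraries had correlations of 0.081, -0.035 and -0.003 in their deviations from the group means. These correlations cannot tell whether same-numbered libraries were prepared together. With the replicate block, 1202 genes were called higher and 1909 lower, 0 septins higher and 1 lower, 0 septin transcripts higher and 2 lower, and 6 genes of the partner and cytokinesis lists higher and 8 lower. The adjusted p was then 0.0121 for 2-Sep, 0.0275 for 7-Sep and 0.0153 for 1-Sep. Those higher in the contractile ring went from 4 to 1, with ROCK1 (0.0183), MYL12B (0.0210) and MYH9 (0.0233) not called, and among the other partners from 2 to 1 (SIAH1, 0.0168). Those lower went from 5 to 1 in abscission, from 6 to 4 in the central spindle, from 1 to 0 among the other partners (HDAC6, 0.0120) and from 1 to 0 among the colon markers (KRT20, 0.0214).

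Requiring such a change of 1 or more left 944 genes higher and 1930 lower, 0 septins higher and 1 lower, 0 septin transcripts higher and 2 lower, and 4 listed genes higher and 5 lower. At an adjusted p under 0.05, 3 septins were higher and 4 lower, with 13 septin transcripts higher and 28 lower. Over all genes tested, 3630 were then higher and 4290 lower, so the calls rose there too. A trend in limma called 2 septins higher, and 8 septin transcripts higher and 27 lower, against 2880 genes higher and 3307 lower over all genes. Scaling by the median of ratios called 3 septins and 9 septin transcripts higher. Scaling to equal totals and the absence of a filter each gave 0 septins and 0 septin transcripts higher in limma and 7 listed genes higher, and scaling by the upper quartile gave 0 septin transcripts higher. All transcripts as separate rows gave 6379 higher and 7250 lower. Among the libraries left out in turn, genes called ranged from 928 to 2675 higher and 1514 to 3507 lower, septins from 0 to 2 higher and 1 to 4 lower, septin transcripts from 0 to 10 higher and 2 to 28 lower, and listed genes from 4 to 12 higher and 6 to 16 lower. Septins without overlap numbered 7 to 9, but leaving out a library can only reduce overlap, for any gene. The share over all genes is not given for these settings, and was 71.1% with all 6 libraries.

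DESeq2 and edgeR were not run because the values are not counts. Depth per library is unknown, so the precision of low values such as those of 4-Sep is known only from the spread of 3 libraries.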

Other observations

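The table held 25 symbols that had become dates, of which 13 were septins. By their transcripts, 1-Mar joined MARCHF1 and MTARC1, and 2-Mar joined MARCHF2 and MTARC2. Within 1-Mar, the transcript of MTARC1, NM_022746.3, had signals of 346, 306 and 320 in Control against 594, 707 and 904 with DCC-2036 and was higher (adjusted p = 0.00175, limma over all transcripts). Both transcripts of MARCHF1 under that symbol were listed at 103, 78.1 and 53.0 in Control against 96.5, 93.3 and 149 with DCC-2036, with groups that overlapped (adjusted p = 0.139). The call of 1-Mar in a table reduced to 1 transcript per symbol therefore belongs to MTARC1. These symbols were named after their values were seen.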
